A study of Mus musculus with 24 samples.

Results

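The transcripts described here encode subunits, feedback inhibitors and targets of nuclear factor kappa B (NF-kB). The list was fixed by name and held 10 genes: the subunits Nfkb1, Nfkb2, Rela and Relb, the inhibitors Nfkbia and Tnfaip3, and the targets Birc3, Icam1, Vcam1 and Sod2. Each gene was read from its brightest probe set, by the mean of all 24 arrays. Of the 10 genes, 9 were measured by a probe set with 1 gene symbol, out of 18820 genes measured in this way. Nfkb1 had no such probe set and was not analysed here.

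Expression was measured on whole-transcript Affymetrix arrays in 24 mouse livers, in 8 groups of 3 animals. The first pair of groups held untreated mice aged 52 weeks, labelled NEMO/JNKΔhepa triple knockout or control. The next held JNKΔhepa double knockouts and mice labelled control, 40 days into treatment with diethylnitrosamine (DEN), a liver carcinogen. Another held JNKΔhepa double knockouts and mice labelled control after 28 days of bile duct ligation (BDL), a surgical block of bile flow. The last held untreated mice aged 8 weeks, labelled NEMO/JNK1Δhepa double knockout or NEMO single knockout. Per the labels' protocols, floxed alleles were deleted by Alb-Cre, a recombinase driven in hepatocytes, in C57BL/6 mice. Those protocols name NEMO∆hepa and NEMOf/f mice as controls, and the genotype of each liver labelled control is not given in the sources used here. JNKΔhepa mice were Jnk1LoxP/LoxP/Jnk2-/-, so that Jnk2 was deleted in every cell and Jnk1 only where Alb-Cre had acted. Cells in which it had not acted kept their floxed alleles. Whole livers were measured, so that deletion was not read in any single cell type. The ages of the treated mice were not given in the sources used here.

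NF-kB proteins are dimers of the Rel family that IkB proteins hold in the cytoplasm. Signals such as tumour necrosis factor, interleukin-1 and bacterial products activate the IkB kinase complex, whose regulatory subunit is NEMO, encoded by Ikbkg. The kinase marks IkB for degradation, and dimers that contain RelA then enter the nucleus. A second arm runs through the kinase NIK, encoded by Map3k14, needs no NEMO, and yields dimers of p52, made from the Nfkb2 product, with RelB. Targets include the pathway's own inhibitors, adhesion molecules that bind leukocytes, chemokines, and proteins that block cell death. In hepatocytes the pathway is known to protect against death induced by tumour necrosis factor.

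The targeted genes were read in every group. Ikbkg averaged 6.45 ± 0.02 in NEMO/JNK livers and 7.3 ± 0.26 in livers labelled control at 52 weeks (log2, mean ± SD, n = 3 each), a difference of −0.85 (adjusted p = 0.0043). At 8 weeks it averaged 6.92 ± 0.14 in livers labelled NEMO/JNK1, against 7.07 ± 0.24 in livers labelled NEMO, levels near those of the JNK knockouts after DEN (6.98 ± 0.34) and BDL (7.02 ± 0.04), whose label names no NEMO deletion. Mapk8, which encodes JNK1, differed by −0.87 at 52 weeks (adjusted p = 0.00259), −0.64 after DEN (adjusted p = 0.985), −1.02 after BDL (adjusted p = 0.0299) and −0.61 at 8 weeks (adjusted p = 0.602). The call after BDL was lost in 6 of 15 alternative fits. Mapk9, which encodes JNK2, lay between 2.82 and 3.51 in all 18 livers of the 52-week, DEN and BDL experiments, including the 9 labelled control. It averaged 8.39 ± 0.12 in livers labelled NEMO/JNK1, against 8.34 ± 0.3 in livers labelled NEMO. The labels of these 9 livers do not state whether JNK2 was intact, and their Mapk9 was low, as in the JNK knockouts. These animals are therefore called livers labelled control throughout.

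NF-kB recognises short kB sequences in DNA, and promoter windows of listed genes that hold a match to such a sequence are shown here. RefSeq windows (GRCm38.p6) were matched by symbol for 7 of the 10 genes, with 10 annotated starts. The 250 bases before each start were searched on both strands for the NF-kB consensus of 10 letters and for a shorter form of 9 letters, GGNNNTTCC, read as GGAANNNCC on the other strand. Both patterns were chosen after the windows had been seen, and matches to them often overlap. Of 32851 windows of this length, 7.3% held the consensus and 15.7% the shorter form. Among the windows of the listed genes, 6 of 10 held the consensus (Nfkb2, Nfkbia, Tnfaip3 and Sod2) and 7 of 10 held the shorter form (Nfkb2, Nfkbia, Tnfaip3 and Icam1). The windows of Rela and Birc3 held neither, which says only that these letters are not in those windows. The sequences below run 5′ to 3′ towards the start, and capitals mark every match to either pattern.
Icam1, chr9:21015690-21015939, plus strand: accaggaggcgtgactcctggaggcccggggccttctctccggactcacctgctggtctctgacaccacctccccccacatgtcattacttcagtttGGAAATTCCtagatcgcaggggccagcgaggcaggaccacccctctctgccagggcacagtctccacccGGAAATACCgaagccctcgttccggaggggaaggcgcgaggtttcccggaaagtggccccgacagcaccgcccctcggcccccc
Sod2, chr17:13007589-13007838, plus strand: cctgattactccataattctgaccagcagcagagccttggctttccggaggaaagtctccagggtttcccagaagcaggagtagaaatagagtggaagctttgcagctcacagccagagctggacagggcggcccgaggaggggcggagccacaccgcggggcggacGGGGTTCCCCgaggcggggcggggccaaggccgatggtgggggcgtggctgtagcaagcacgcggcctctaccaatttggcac
Nfkbia, chr12:55492648-55492897, minus strand: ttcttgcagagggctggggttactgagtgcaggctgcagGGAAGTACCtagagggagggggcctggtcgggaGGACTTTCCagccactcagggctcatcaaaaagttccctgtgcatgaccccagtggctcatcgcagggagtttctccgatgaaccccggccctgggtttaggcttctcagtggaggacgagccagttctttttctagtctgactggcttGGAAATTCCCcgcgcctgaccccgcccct
Tnfaip3, upstream start, chr10:19015411-19015660, minus strand: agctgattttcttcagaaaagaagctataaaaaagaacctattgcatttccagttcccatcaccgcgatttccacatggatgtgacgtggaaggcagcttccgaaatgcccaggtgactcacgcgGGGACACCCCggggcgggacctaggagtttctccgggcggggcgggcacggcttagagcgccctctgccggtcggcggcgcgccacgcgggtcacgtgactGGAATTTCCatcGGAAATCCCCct
Nfkb2, upstream start, chr19:46304487-46304736, plus strand: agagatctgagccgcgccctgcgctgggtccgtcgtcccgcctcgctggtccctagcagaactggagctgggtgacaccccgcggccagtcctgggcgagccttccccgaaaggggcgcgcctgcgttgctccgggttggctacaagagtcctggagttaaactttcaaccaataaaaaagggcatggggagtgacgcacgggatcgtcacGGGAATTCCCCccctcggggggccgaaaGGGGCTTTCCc
The Icam1 match farther from its start lay 153 to 145 bases before it and fits the shorter form on both strands. The same 9 letters recur before the Nfkbia start, at 29 to 21 bases. The single match of Sod2 lay 83 to 74 bases before its start. The matches closest to a start were those of Nfkb2, at 11 to 2 bases, and of Tnfaip3, at 12 to 3 bases.

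Across the 8 groups, 8 of the 9 measured genes varied beyond the spread between livers, the exception being Rela (moderated F test over 24 arrays, adjusted over all genes). By the same test, 22.1% of all genes were called. Group means were highest in ligated livers for 7 of the 9 genes (Nfkb2, Rela, Relb, Nfkbia, Tnfaip3, Birc3 and Icam1). The share of all genes that were highest there was not counted. Vcam1 was highest, and Sod2 lowest, in the 52-week NEMO/JNK livers. Groups also differed in age, treatment and animal series, which cannot be told apart in this test. In whole livers, fewer cells of a type and less RNA per cell cannot be told apart either.

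**Figure D1:**
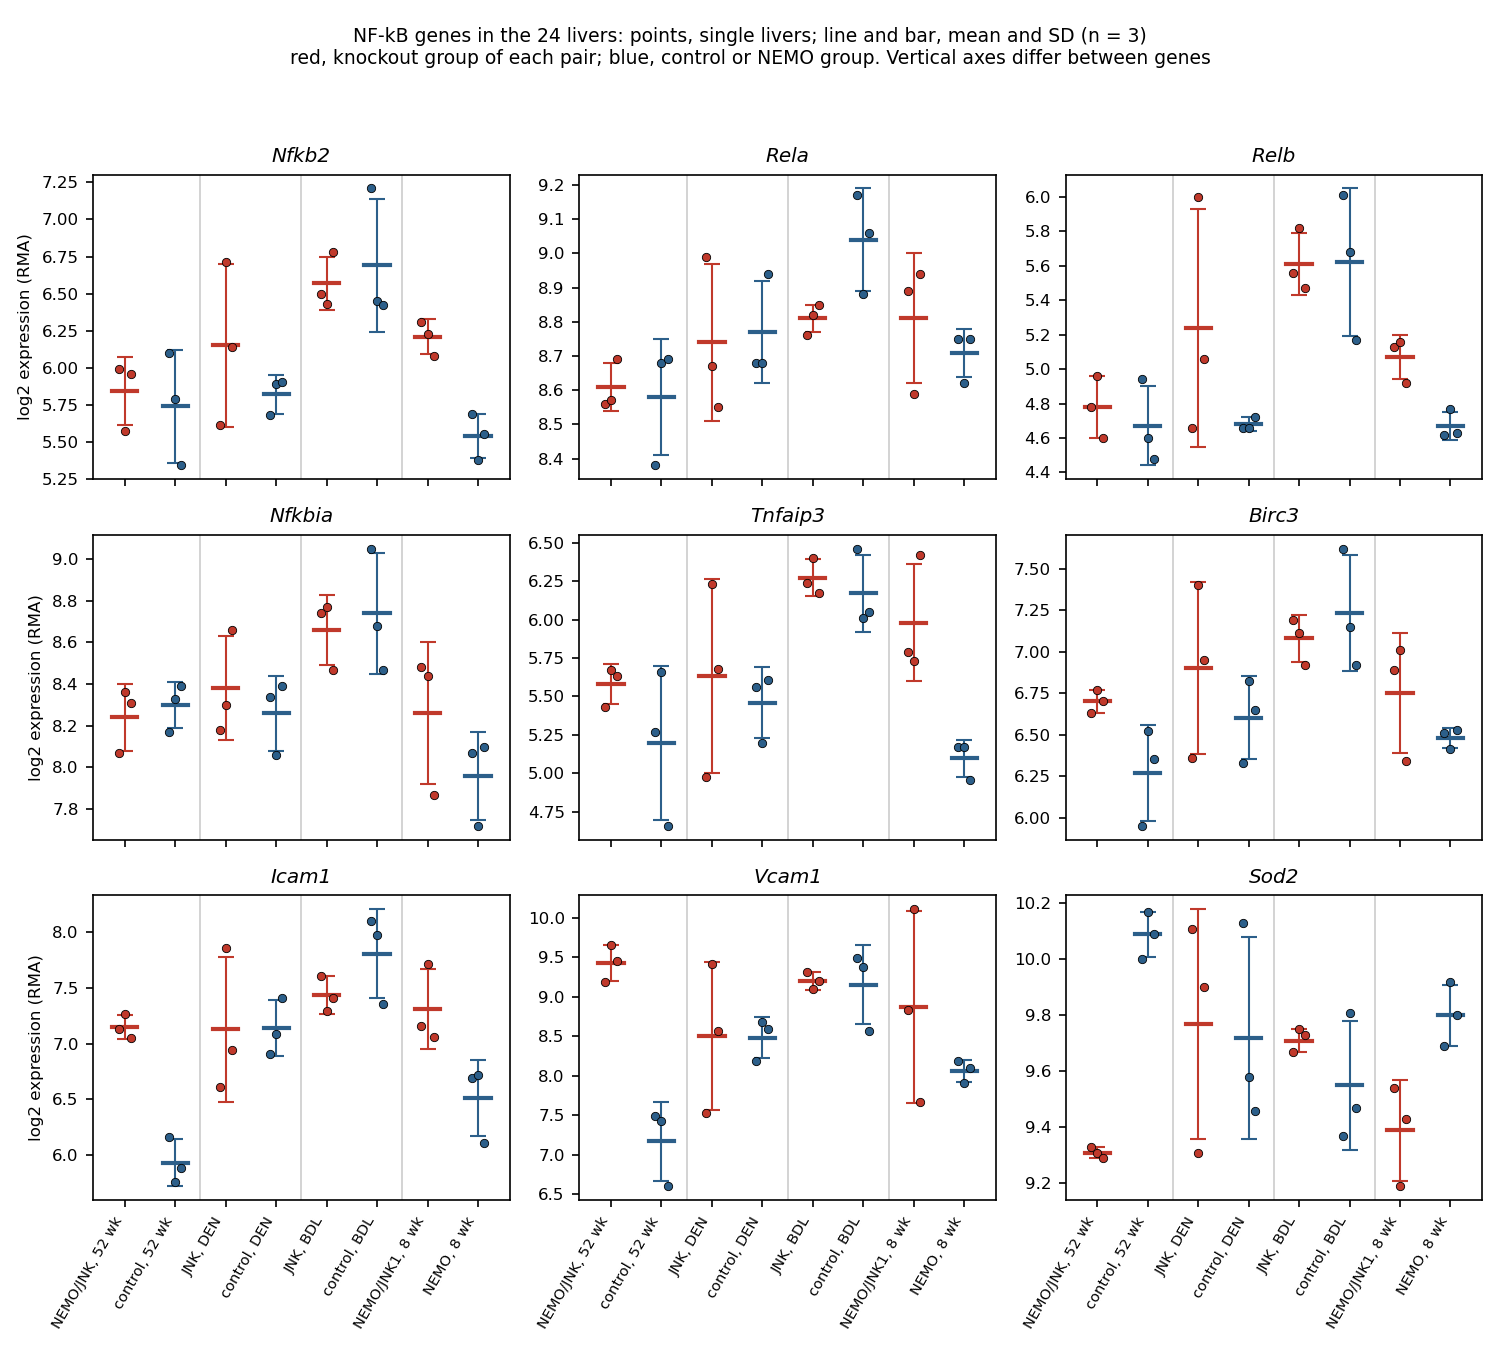
Log2 expression (RMA, vertical axes) of the 9 measured NF-kB genes in the 8 groups of 3 livers (horizontal axes). Points are single livers, and lines with bars are means and SDs. At 52 weeks the NEMO/JNK livers lie above the livers labelled control for Icam1 and Vcam1 and below them for Sod2, without overlap.

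Among the subunits, Nfkb2 encodes p100, the precursor of p52. It averaged 5.84 ± 0.23 in NEMO/JNK livers and 5.74 ± 0.38 in livers labelled control at 52 weeks, and 6.21 ± 0.12 in livers labelled NEMO/JNK1, against 5.54 ± 0.15 in livers labelled NEMO at 8 weeks. After DEN it averaged 6.15 ± 0.55 in JNK knockouts, against 5.82 ± 0.13 in livers labelled control, and after BDL 6.57 ± 0.18 in JNK knockouts, against 6.69 ± 0.45 in livers labelled control. Its group means spanned 1.15 log2 units, or 2.22-fold (adjusted p = 0.0115). Of the steps between neighbours by mean, only that between JNK knockouts after BDL and the livers labelled NEMO/JNK1 was without overlap. The JNK knockouts after DEN, lower by mean, still reached 6.71, within the range of both ligated groups.

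Relb, the partner of p52, followed the same order at its upper end. It averaged 4.78 ± 0.18 in NEMO/JNK livers and 4.67 ± 0.23 in livers labelled control at 52 weeks, 5.07 ± 0.13 in livers labelled NEMO/JNK1, against 4.67 ± 0.08 in livers labelled NEMO. After DEN the JNK knockouts averaged 5.24 ± 0.69 and the livers labelled control 4.68 ± 0.04, and after BDL they averaged 5.61 ± 0.18 and the livers labelled control 5.62 ± 0.43. All 7 neighbouring pairs of groups overlapped, and the means spanned 1.93-fold (adjusted p = 0.0117).

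Rela encodes the main activating subunit of the NEMO-dependent arm and varied least. Its single livers lay between 8.38 and 9.17, and its group means between 8.58 ± 0.17 in livers labelled control at 52 weeks and 9.04 ± 0.15 in livers labelled control after BDL. They spanned 1.38-fold (adjusted p = 0.146). The livers labelled control after BDL lay above all other groups by mean and did not overlap with the next group, the JNK knockouts after BDL. They ran from 8.88 to 9.17 and did overlap with groups of lower mean. The highest livers of these were at 8.99 in JNK knockouts after DEN, and at 8.94 in livers labelled control after DEN and in livers labelled NEMO/JNK1.

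Of the inhibitors, Nfkbia encodes IkBα, which recaptures RelA dimers. Its lowest group mean was 7.96 ± 0.21 in livers labelled NEMO, and its highest were 8.66 ± 0.17 in JNK knockouts, against 8.74 ± 0.29 in livers labelled control after BDL (adjusted p = 0.0441, 1.72-fold). Tnfaip3 encodes A20, a ubiquitin-editing enzyme that damps signalling above the kinase complex. It averaged 5.58 ± 0.13 in NEMO/JNK livers and 5.2 ± 0.5 in livers labelled control at 52 weeks, 5.98 ± 0.38 in livers labelled NEMO/JNK1, against 5.1 ± 0.12 in livers labelled NEMO. After DEN it averaged 5.63 ± 0.63 in JNK knockouts, against 5.46 ± 0.23 in livers labelled control, and after BDL 6.27 ± 0.12 in JNK knockouts, against 6.17 ± 0.25 in livers labelled control. Its means spanned 2.25-fold (adjusted p = 0.0135), and all neighbours in the order overlapped for both inhibitors.

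Of the targets, Birc3 encodes cIAP2, a ubiquitin ligase that blocks cell death. Its group means lay between 6.27 ± 0.29 in livers labelled control at 52 weeks and 7.23 ± 0.35 in livers labelled control after BDL (1.95-fold, adjusted p = 0.0468). The adhesion molecules had the widest spans, 3.68-fold for Icam1 (adjusted p = 0.00145) and 4.79-fold for Vcam1 (adjusted p = 0.0173). Icam1 averaged 7.13 ± 0.65 in JNK knockouts, against 7.14 ± 0.25 in livers labelled control after DEN, and 7.44 ± 0.17 in JNK knockouts, against 7.81 ± 0.4 in livers labelled control after BDL. Vcam1 averaged 8.5 ± 0.94 in JNK knockouts, against 8.48 ± 0.26 in livers labelled control after DEN, and 9.2 ± 0.11 in JNK knockouts, against 9.15 ± 0.5 in livers labelled control after BDL. Livers labelled control at 52 weeks had the lowest mean of both adhesion genes, and for Vcam1 they did not overlap with the next group, the livers labelled NEMO.

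Sod2 encodes the mitochondrial superoxide dismutase and ran in another order than the remaining targets. It was highest by mean in livers labelled control at 52 weeks, which did not overlap with the next group, the livers labelled NEMO. Those 52-week livers ran from 10 to 10.17 and did overlap with both DEN groups, of lower mean. Sod2 reached 10.13 in replicate 1 of the livers labelled control after DEN, and 10.11 in JNK knockout replicate 1. After DEN it averaged 9.77 ± 0.41 in JNK knockouts, against 9.72 ± 0.36 in livers labelled control, and after BDL 9.71 ± 0.04 in JNK knockouts, against 9.55 ± 0.23 in livers labelled control (1.72-fold over the 8 groups, adjusted p = 0.0438). The calls of Nfkbia, Birc3 and Sod2 in this test held in only 15, 11 and 11 of 31 alternative fits. The call of Vcam1 was lost without replicate 3 of the livers labelled control at 52 weeks.

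At 52 weeks, livers labelled NEMO/JNK were compared with livers labelled control, Mapk9 being low in both. Both adhesion molecules were higher in NEMO/JNK livers, Sod2 was lower, and the subunits and inhibitors did not pass the test. Of the 9 genes, 2 were called higher and 1 lower, against 13.6% of all genes called higher and 7.9% called lower. Of all genes called, 63.3% were thus higher. The share was 14.9% with each array centred on its median over the 18820 genes, and 46.6% with quantile normalisation. The median difference over the 9 genes was 0.11, and over all genes −0.05.

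Vcam1, which binds monocytes and lymphocytes through their integrins, had 9.19, 9.66 and 9.45 in the 3 NEMO/JNK livers, against 7.49, 7.43 and 6.6 in the livers labelled control. Every knockout liver lay more than 1 log2 unit above every liver labelled control. The difference was 2.26 (SE 0.24), or 4.79-fold (limma, adjusted p = 0.000437). Icam1, which binds leukocyte integrins and is carried by endothelium, hepatocytes and leukocytes, had 7.13, 7.27 and 7.05 in NEMO/JNK livers, against 6.16, 5.76 and 5.88 in livers labelled control. The groups did not overlap, and the difference was 1.22 (SE 0.14), or 2.33-fold (adjusted p = 0.000629). Sod2 had 9.33, 9.31 and 9.29 in NEMO/JNK livers, against 10, 10.17 and 10.09 in livers labelled control. It was lower in all 3 knockout livers and fell by 0.78 (SE 0.11) on the log2 scale (adjusted p = 0.00175). Each of these 3 calls held in all 14 alternative fits of the comparison.

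Birc3 had 6.63, 6.77 and 6.7 in NEMO/JNK livers, against 5.95, 6.52 and 6.35 in livers labelled control. Its groups did not overlap, yet its difference of 0.43 (SE 0.16) did not pass over all genes (adjusted p = 0.0892). Differences were 0.38 (95% interval −0.14 to 0.9) for Tnfaip3, 0.1 (−0.37 to 0.56) for Nfkb2 and 0.11 (−0.25 to 0.46) for Relb. For Rela the difference was 0.02 (−0.27 to 0.32), and for Nfkbia −0.05 (−0.35 to 0.24). None of these 5 genes passed the test. Centring each array on its median moved the median of all genes from −0.045 to −0.371, and then gave −0.23 for Nfkb2, −0.3 for Rela and −0.22 for Relb, still not called, and −0.38 for Nfkbia (adjusted p = 0.0453). Vcam1, Icam1 and Sod2 kept their direction and call on that scale.

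**Figure D2:**
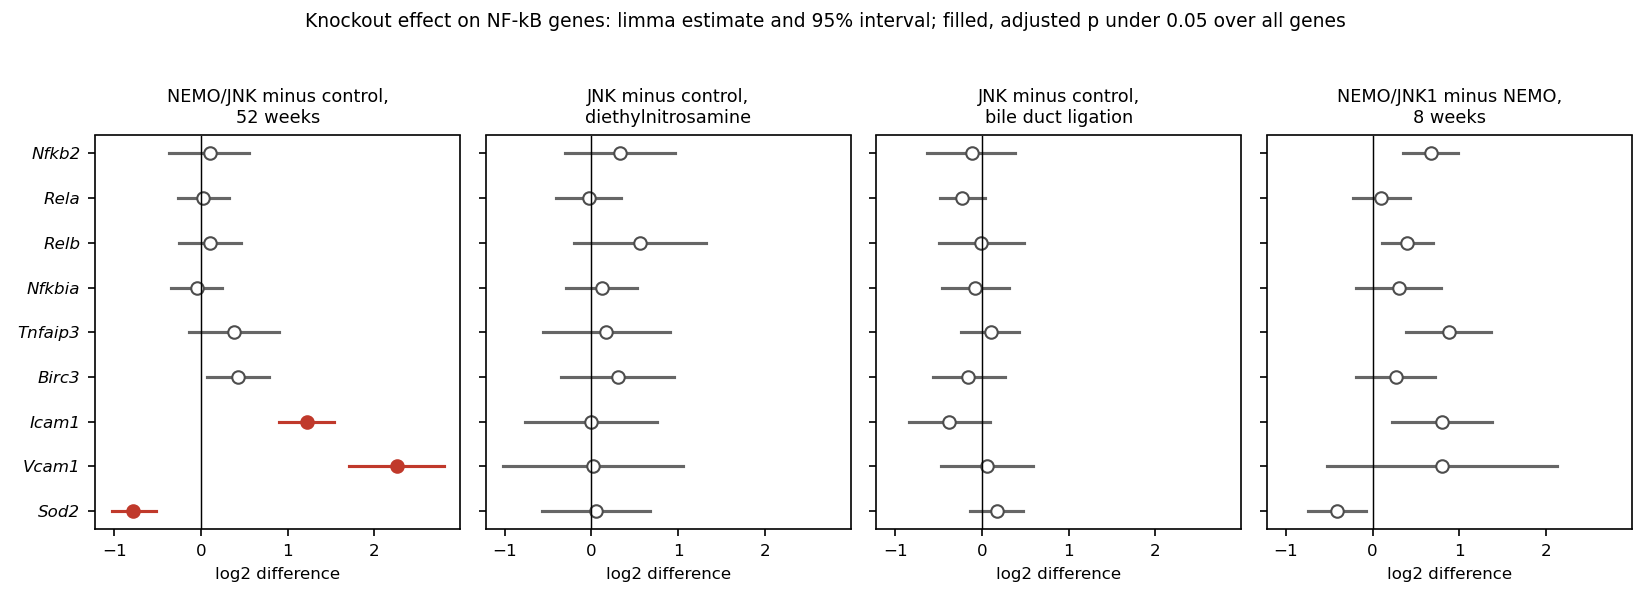
Log2 differences (horizontal axes) of the 9 NF-kB genes in the 4 knockout comparisons, with 95% intervals from limma. Filled points passed an adjusted p of 0.05 over all genes, which only Icam1, Vcam1 and Sod2 did, all at 52 weeks.

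In the wider pathway, 22 of 84 further genes were called higher and 1 lower at 52 weeks, against 13.6% and 7.9% of all genes, with a median difference of 0.15 (−0.05 over all genes). With each array centred on its median, 13 of the 84 were higher and 21 lower. Among ligands, receptors and adaptors, 6 of 23 were higher. Tlr4, the endotoxin receptor, rose by 1.13 (SE 0.13, adjusted p = 0.000671), Tnfrsf1b, a receptor for tumour necrosis factor, by 0.94 (adjusted p = 0.001), and Tnfsf13b, which encodes the B cell survival factor BAFF, by 1.04 (adjusted p = 0.00112). In the group of the IkB kinase complex, its upstream kinases and ubiquitin ligases, 3 of 12 were higher, and Ikbkg alone was lower. Map3k14, the kinase of the arm that needs no NEMO, averaged 6.16 ± 0.22 in NEMO/JNK livers and 5.24 ± 0.18 in livers labelled control, a difference of 0.93 (adjusted p = 0.00334). Tab1, an adaptor of the kinase TAK1, differed by 0.62 (adjusted p = 0.0112), a call lost when arrays were centred (adjusted p = 0.105) or normalised by quantiles (adjusted p = 0.15).

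Of 14 further Rel and IkB proteins and negative regulators, 2 were higher, close to the 13.6% of all genes called higher. Nfkbiz, a nuclear IkB protein, rose by 1.22 (adjusted p = 0.00232). Tnip1, a partner of A20, averaged 6.8 ± 0.15 in NEMO/JNK livers and 6.17 ± 0.13 in livers labelled control (adjusted p = 0.00953). That call was lost with centred arrays (adjusted p = 0.0635) and with all 24 arrays in 1 fit (adjusted p = 0.0587). Among inflammatory targets 5 of 25 were higher, against the same 13.6% of all genes, with a list median of 0.02. The T cell chemokine Ccl5 had the smallest p of them, at 8.26 ± 0.23 in NEMO/JNK livers and 6.03 ± 0.74 in livers labelled control, a difference of 2.22 (SE 0.32, adjusted p = 0.00185). Cxcl16, a membrane-bound chemokine, differed by 1.08 (adjusted p = 0.0039), and Irf1, an interferon-responsive factor, by 0.66 (adjusted p = 0.00685). The Cxcl16 call was lost with all 24 arrays in 1 fit (adjusted p = 0.0541), and the Irf1 call with centred arrays (adjusted p = 0.0732) or with the mean of all its probe sets (adjusted p = 0.0911).

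Of the survival targets, 6 of 10 were higher, against 13.6% of all genes, with a median difference of 0.62. Bcl2, an inhibitor of mitochondrial cell death, averaged 6.56 ± 0.1 in NEMO/JNK livers and 5.2 ± 0.19 in livers labelled control, a difference of 1.36 (SE 0.13, adjusted p = 0.000314). Gadd45b, which restrains the kinase MKK7 upstream of JNK, averaged 7.5 ± 0.14 in NEMO/JNK livers and 5.85 ± 0.43 in livers labelled control, 3.15-fold apart (adjusted p = 0.000894). Bcl2l1, which encodes Bcl-xL, averaged 8.1 ± 0.05 in NEMO/JNK livers and 7.09 ± 0.21 in livers labelled control, 2.02-fold apart (adjusted p = 0.00124).

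**Figure D3:**
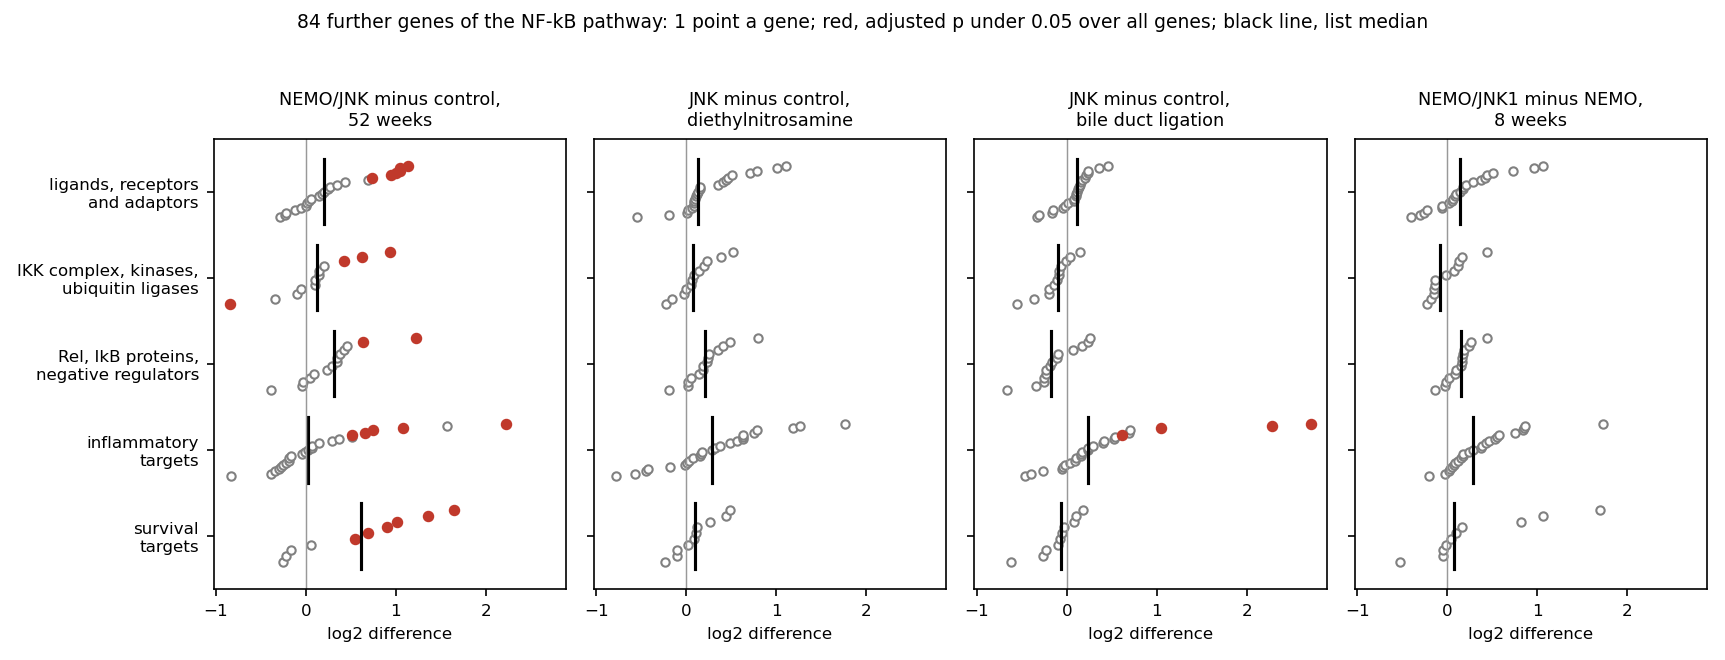
Log2 differences (horizontal axes) of 84 further NF-kB pathway genes by list (rows) in the 4 knockout comparisons. Each point is a gene, red points passed an adjusted p of 0.05 over all genes, and black lines are list medians. Red points number 23 at 52 weeks, 4 after BDL and 0 in the other comparisons.

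Markers of several cell types moved with the adhesion genes at 52 weeks, where 13.6% of all genes were called higher and 7.9% lower. All 7 measured cholangiocyte markers were higher, and their summed level ran from 11.28 to 11.86 in NEMO/JNK livers and from 7.92 to 8.61 in livers labelled control. Of the macrophage and Kupffer cell markers 6 of 9 were higher, and the sum ran from 12.05 to 13.14 in NEMO/JNK livers and from 11.1 to 11.53 in livers labelled control. T and NK cell markers were higher for 4 of 6 genes, with sums from 8.27 to 9.18 in NEMO/JNK livers and from 7.04 to 7.7 in livers labelled control. B and plasma cell markers were higher for 2 of 5 and neutrophil markers for 1 of 7. Their sums ran from 9.32 to 9.76 in NEMO/JNK livers and from 6.77 to 8.77 in livers labelled control for B and plasma cells, and from 7.51 to 8.44 in NEMO/JNK livers and from 6.84 to 7.72 in livers labelled control for neutrophils. Endothelial markers, 1 of 8 higher and 1 lower, kept overlapping sums, from 10.96 to 11.18 in NEMO/JNK livers and from 11.02 to 11.17 in livers labelled control. Stellate cell and fibroblast markers, 2 of 8 higher and 1 lower, ran from 11.57 to 12.03 in NEMO/JNK livers and from 11.31 to 11.67 in livers labelled control. None of the 9 hepatocyte markers was called, and their sums, from 15.44 to 15.53 in NEMO/JNK livers and from 15.3 to 15.63 in livers labelled control, were the highest of the lists. The part of these cell types in the differences of Vcam1, Icam1, Sod2 and the pathway genes was not tested.

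**Figure D4:**
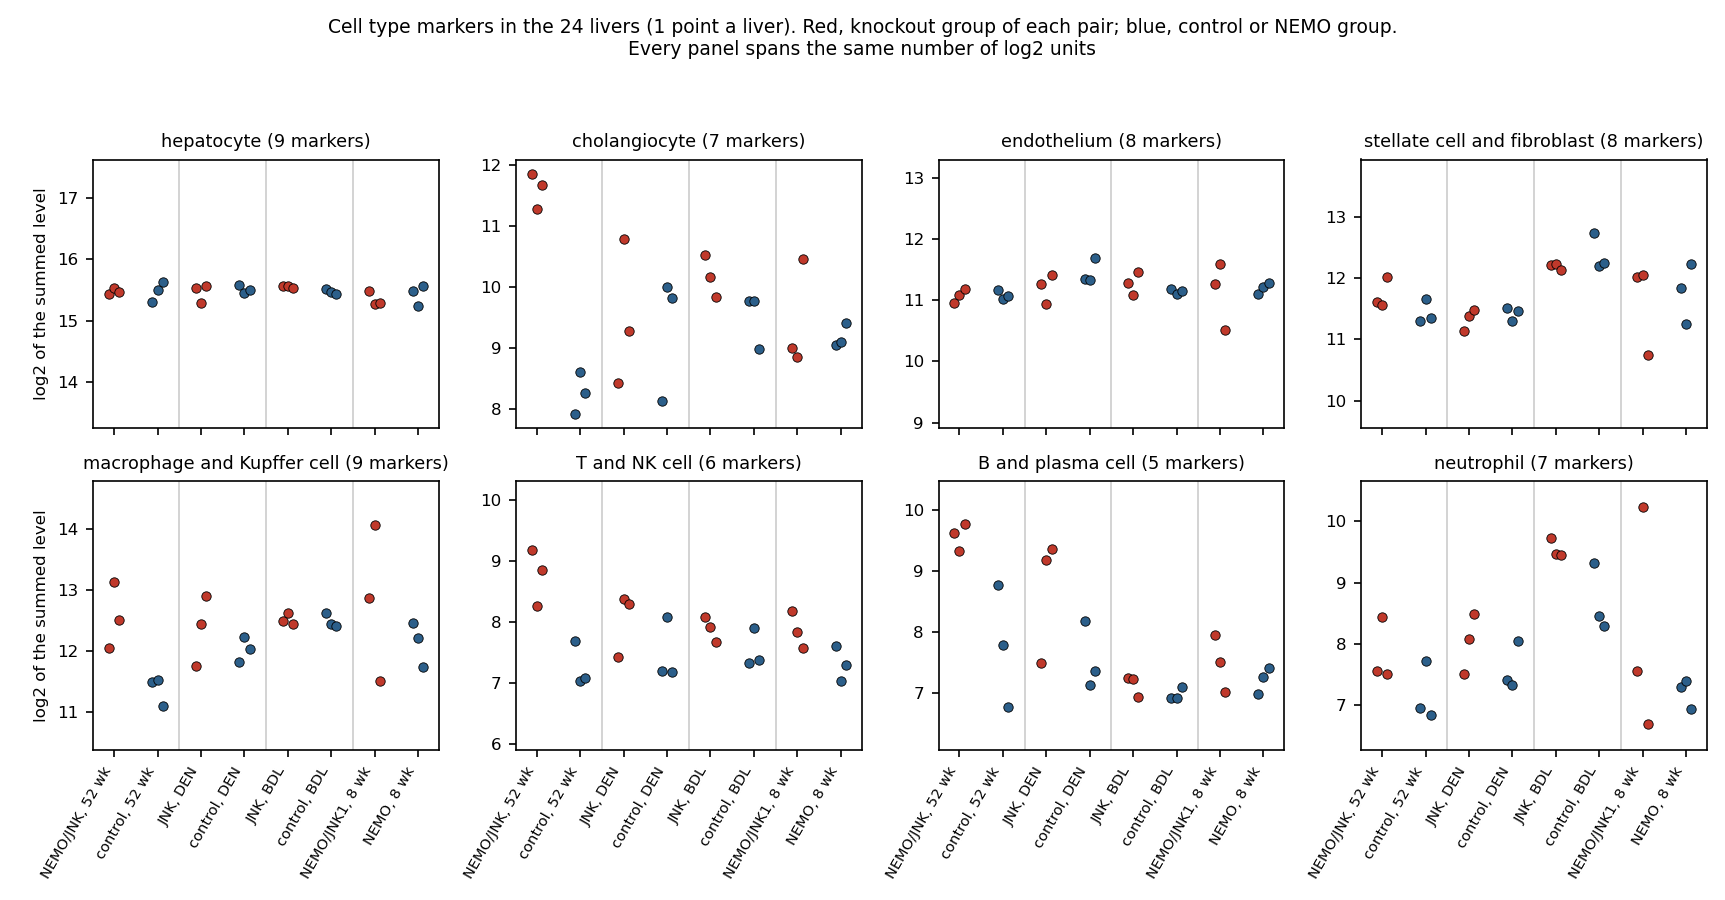
Summed level of each cell type's markers (log2 of the sum of linear levels, vertical axes) in single livers of the 8 groups (horizontal axes), with the same span in every panel. At 52 weeks the cholangiocyte, macrophage, T and NK, and B and plasma cell sums of the NEMO/JNK livers lie above all those of the livers labelled control, while hepatocyte and endothelial sums overlap.

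After BDL, which causes cholestasis, the livers labelled JNK knockout and control both had low Mapk9, so that of the 2 targeted genes only Mapk8 differed between them. None of the 9 NF-kB genes was called, against 0.797% of all genes called higher and 0.558% called lower. Rela came closest, with 8.76, 8.82 and 8.85 in JNK knockouts, against 9.17, 8.88 and 9.06 in livers labelled control. The groups did not overlap, but the difference of −0.23 (SE 0.11) missed the threshold (adjusted p = 0.414). Icam1 had 7.61, 7.29 and 7.41 in JNK knockouts, against 8.1, 7.98 and 7.36 in livers labelled control. Replicate 3 of the livers labelled control lay among the knockouts, and the difference of −0.38 (SE 0.2) had an adjusted p of 0.454. Differences of the other 7 genes lay between −0.16 and 0.17, with 95% intervals that all lay within −0.63 to 0.59. Replicates 1 and 2 of the livers labelled control came from another series of animal identifiers, and with that prefix as a block only replicate 3 was set against the 3 knockouts. In that fit Icam1 differed by 0.08, Relb by 0.45, Nfkbia by 0.19, Nfkb2 by 0.15 and Birc3 by 0.15, each with the sign turned and none called.

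In the wider pathway, 4 of 84 genes were higher after BDL in the knockouts and 0 lower, against 0.797% and 0.558% of all genes. All 4 were among the 25 inflammatory targets. The count was 1 when genes with a mean under 5 over the 24 arrays were left out, which removed Cxcl5, Ccl20 and Il6. It was 2 with the prefix block, and 2 without JNK replicate 1 or without JNK replicate 2. Saa3, an acute phase protein, averaged 9.3 ± 0.14 in JNK knockouts, against 6.6 ± 0.53 in livers labelled control, a difference of 2.71 (SE 0.24), or 6.53-fold (adjusted p = 0.00292). Cxcl5, a neutrophil chemokine, averaged 5.5 ± 0.31 in JNK knockouts, against 3.22 ± 0.18 in livers labelled control, a difference of 2.28 (adjusted p = 0.00149). Cxcl5 and Il6 were dim in livers labelled control, where a level above background was not established, so that the size of both differences is uncertain. Ccl20 differed by 1.05 (adjusted p = 0.0082), a call lost with all 24 arrays in 1 fit (adjusted p = 0.662), with the prefix block (adjusted p = 0.0672), and without JNK replicate 1 (adjusted p = 0.0528) or 2 (adjusted p = 0.0563). Il6, named here after its values were seen, was at 2.7 ± 0.05 in JNK knockouts, against 2.09 ± 0.08 in livers labelled control (adjusted p = 0.0306). Neutrophil marker sums ran from 9.45 to 9.73 in JNK knockouts and from 8.29 to 9.32 in livers labelled control, with 0 of 7 markers called, and their part in these 4 differences was not tested.

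The pathway lists without a called gene are given by their smallest p-values. Tlr2, a receptor for bacterial lipopeptides, differed by −0.33 (adjusted p = 0.336) and Ltb, a subunit of lymphotoxin, by 0.46 (adjusted p = 0.389). Ikbkg differed by −0.37 (adjusted p = 0.145) and Birc2, the gene of cIAP1, by −0.55 (adjusted p = 0.231). Among regulators, Otulin, an enzyme that removes linear ubiquitin chains, differed by 0.26 (adjusted p = 0.272) and Bcl3, a nuclear IkB protein, by −0.66 (adjusted p = 0.306). Of the survival targets, Bcl2 differed by −0.23 (adjusted p = 0.437) and Ier3, an immediate early gene, by −0.62 (adjusted p = 0.645). Without replicate 3 of the livers labelled control, Birc2 (−0.78), Bcl3 (−1.01) and Ier3 (−1.27) passed the threshold as lower in the knockouts. That fit leaves no liver labelled control with the identifier prefix of the knockouts, so that prefix and group cannot be told apart in it. With the prefix as a block the differences were −0.1 for Birc2, 0.03 for Bcl3 and 0.69 for Ier3, none of them called.

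After DEN, none of the 9 genes was called, and 0% of all genes were called higher and 0% lower, while 781 genes had an unadjusted p under 0.05, none of them among the 9. The JNK knockouts spread widely, with replicates 1 and 2 at opposite ends for most genes. Relb had 4.66, 6 and 5.06 in JNK knockouts, against 4.66, 4.66 and 4.72 in livers labelled control. Vcam1 had 7.53, 9.41 and 8.57 in JNK knockouts, against 8.19, 8.68 and 8.59 in livers labelled control. In both genes the second knockout liver was the highest and the first the lowest or level with the lowest. That second liver also had the highest Nfkb2 (6.71), Tnfaip3 (6.23), Birc3 (7.4) and Icam1 (7.86) and the lowest Sod2 (9.31) of the 6 livers. Of the 6 livers it also had the highest cholangiocyte marker sum (10.79) and the highest T and NK cell sum (8.38). Its hepatocyte sum (15.29) and endothelial sum (10.94) were the lowest. The highest macrophage (12.91), neutrophil (8.49) and B and plasma cell (9.35) sums were those of the third knockout liver. The part of those cells was not tested. Differences over all 6 livers were 0.56 (SE 0.32) for Relb, 0.33 for Nfkb2, 0.3 for Birc3, 0 for Icam1 and 0.02 for Vcam1. Without replicate 2 they were 0.18 for Relb, 0.05 for Nfkb2, 0.05 for Birc3, −0.36 for Icam1 and −0.43 for Vcam1. Without replicate 1 they were 0.85 for Relb, 0.6 for Nfkb2, 0.58 for Birc3, 0.26 for Icam1 and 0.51 for Vcam1. Leaving out either liver thus moved these genes in opposite directions, and none was called either way. Tnfaip3 differed by 0.17 over all livers, −0.13 without replicate 2 and 0.5 without replicate 1. Sod2 differed by 0.05 over all livers, 0.28 without replicate 2 and −0.12 without replicate 1. Rela stood at −0.03 over all livers, 0 without replicate 2 and −0.16 without replicate 1, and Nfkbia at 0.12, 0.15 and 0.22 in the same order.

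None of the 84 pathway genes was called after DEN. Of them, 68 had a positive difference, with a median of 0.15. Over all 18820 genes, 8494 had a positive difference, with a median of −0.02. These counts were not tested. The values with the smallest p-values were 0.41 for Cd40lg, a T cell ligand, and 1.01 for Il1b, the gene of interleukin-1 beta. They were 0.52 for Birc2 and 0.23 for Rnf31, a subunit of the linear ubiquitin ligase. Among regulators they were 0.8 for Nfkbie, an IkB protein, and 0.23 for Cyld, a deubiquitinase. Ptx3, a soluble pattern receptor, differed by −0.43 and Mmp9, a matrix protease, by 1.19. Traf1, an adaptor, differed by 0.49 and Fth1, the ferritin heavy chain, by −0.1. Each had an adjusted p of 0.985 except Fth1, at 0.987.

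The difference between livers labelled JNK knockout and control after BDL, minus that after DEN, was tested directly over 12 arrays. Mapk9 was low in all 12, so that the contrast does not bear on the loss of Jnk2. No NF-kB gene was called, against 0.0213% of all genes called higher and 0.0266% called lower. The estimates ran from −0.57 (SE 0.42, 95% interval −1.49 to 0.35) for Relb to 0.12 (SE 0.31, −0.56 to 0.8) for Sod2. With intervals this wide, a difference of 1 log2 unit could not be told from none for several genes. These were Relb, Nfkb2 (−1.28 to 0.38), Icam1 (−1.28 to 0.53), Birc3 (−1.24 to 0.32) and Vcam1 (−1.16 to 1.24). Of the 84 pathway genes 0 were called. The smallest p-values belonged to Saa3, at 2.23 (SE 0.36, adjusted p = 0.0823), Il6, at 0.54 (adjusted p = 0.32), and Birc2, at −1.07 (adjusted p = 0.459). Saa3 passed the threshold with array weights (adjusted p = 0.0114) and without BDL replicate 2 of the livers labelled control (adjusted p = 0.0247).

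The other lists gave Tlr2 at −0.85 (adjusted p = 0.629) and Tnfrsf11a, the receptor RANK, at −0.5 (adjusted p = 0.762). Rnf31 stood at −0.37 (adjusted p = 0.568), Cyld at −0.45 (adjusted p = 0.608) and Nfkbie at −1.05 (adjusted p = 0.72). Bcl2 stood at −0.49 (adjusted p = 0.81) and Cflar, an inhibitor of caspase-8, at −0.18 (adjusted p = 0.831). All are differences between the knockout differences after BDL and DEN, not levels.

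At 8 weeks, NEMO/JNK1 livers were set against livers labelled NEMO. None of the 9 genes passed over all genes, and 0% of all genes were called higher and 0% lower. At an unadjusted p under 0.05 stood 1442 genes, among them 5 of the 9. Nfkb2 had 6.31, 6.23 and 6.08 in livers labelled NEMO/JNK1, against 5.69, 5.38 and 5.55 in livers labelled NEMO. Its groups did not overlap, with a difference of 0.67 (SE 0.13, adjusted p = 0.544). Tnfaip3 had 5.79, 5.73 and 6.42 in livers labelled NEMO/JNK1, against 5.17, 5.17 and 4.96 in livers labelled NEMO, a difference of 0.88 (SE 0.21, adjusted p = 0.544). Relb had 5.13, 5.16 and 4.92 in livers labelled NEMO/JNK1, against 4.62, 4.77 and 4.63 in livers labelled NEMO, a difference of 0.4 (SE 0.12, adjusted p = 0.602). In both genes each NEMO/JNK1 liver lay above each liver labelled NEMO.

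Icam1 had 7.16, 7.72 and 7.06 in livers labelled NEMO/JNK1, against 6.69, 6.72 and 6.11 in livers labelled NEMO, a difference of 0.8 (SE 0.24, adjusted p = 0.602). Sod2 had 9.54, 9.19 and 9.43 in livers labelled NEMO/JNK1, against 9.69, 9.92 and 9.8 in livers labelled NEMO, a difference of −0.41 (SE 0.14, adjusted p = 0.604). Neither gene's groups overlapped. Vcam1 had 8.83, 10.11 and 7.66 in livers labelled NEMO/JNK1, against 8.19, 7.91 and 8.09 in livers labelled NEMO. The first of these groups spanned both sides of the other, and the difference of 0.8 (SE 0.56, adjusted p = 0.733) was 0.18 without replicate 2 and 1.41 without replicate 3. Replicate 2 also had the highest macrophage marker sum, 14.07 against 11.51 and 12.87 in its group, and the highest neutrophil sum, 10.23. Replicate 3 had the lowest endothelial sum, 10.51, and the lowest stellate cell sum, 10.75, and the part of these cells was not tested. Differences were 0.1 for Rela, 0.3 for Nfkbia and 0.27 for Birc3, all with overlapping groups.

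The median difference at 8 weeks was 0.4 over the 9 genes and 0 over all genes. Of the 9 genes, 8 had a positive difference, against 9303 of all 18820 genes. All livers labelled NEMO carried another identifier prefix than the livers labelled NEMO/JNK1, so that animal series and genotype cannot be told apart. In the wider pathway 0 of 84 genes were called, and the median was 0.14. Tlr2 differed by 1.06 and Cxcl1, a neutrophil chemokine, by 0.75, and Plau, the urokinase protease, by 1.7 (adjusted p = 0.544 for each). Cd40 differed by 0.73 (adjusted p = 0.604), Csf1, a macrophage growth factor, by 0.57 (adjusted p = 0.602) and Bcl2 by 1.06 (adjusted p = 0.646). Map3k14 differed by 0.44 (adjusted p = 0.692), Tab2 by 0.16 (adjusted p = 0.777), Nfkbiz by 0.44 (adjusted p = 0.646) and Nfkbie by 0.26 (adjusted p = 0.667).

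The genes were also set against each other over the 24 arrays, as a description. These arrays share groups, cell makeup and array quality, so that each correlation is given over all 24 livers and again for deviations from the group means. Nfkb2 and Relb, the subunits of the arm that needs no NEMO, ran together most closely among the subunits and inhibitors, with r of 0.88 over all livers and 0.69 within groups. Icam1 and Vcam1 had r of 0.84 and 0.75, and Relb and Icam1 0.76 and 0.8. Rela stood apart, with r between 0.06 and 0.42 over all livers against the other genes except Sod2 (−0.15), and at or below 0.05 within groups against each of the other 8. Sod2 ran against the adhesion genes, with r of −0.75 over all livers and −0.55 within groups for Vcam1 and −0.68 and −0.66 for Icam1.

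**Figure D5:**
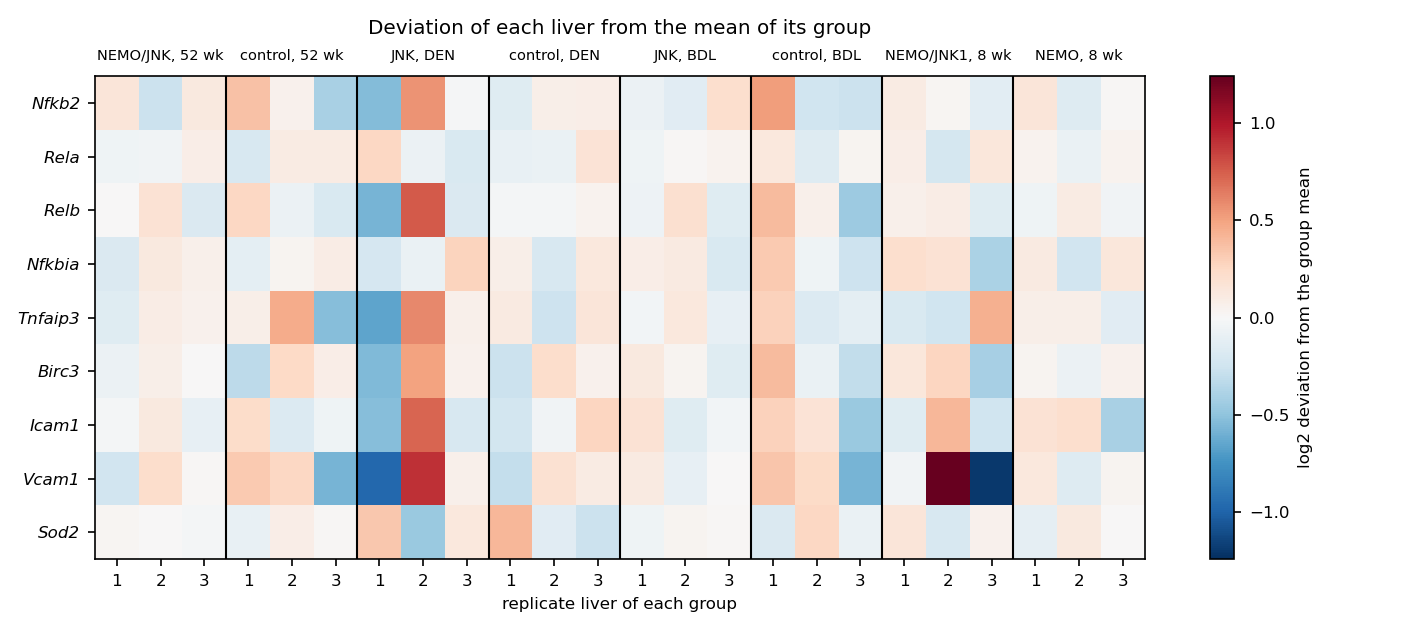
Deviation of each liver (columns, 3 replicates for each of the 8 groups) from the mean of its group in log2 units (colour) for the 9 genes (rows). JNK knockout replicate 2 after DEN is above its group mean for Nfkb2, Relb, Tnfaip3, Birc3, Icam1 and Vcam1 and below it for Sod2, replicate 1 deviates the other way in the same 7 genes, and Vcam1 of livers labelled NEMO/JNK1 deviates most.

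Among all genes with 1 symbol, those most like each gene over the 24 arrays were named by r, with the value within groups after it. Nfkb2 was followed by Relb and by the chemokine receptor gene Ccr1 (0.85, 0.64). Relb was followed by Ccr1 (0.92, 0.76) and Cd33, a myeloid surface protein (0.89, 0.79). Tnfaip3 was followed by Ttyh3 (0.87, 0.61) and Nfkb2 (0.83, 0.57), and Nfkbia by Rasa1 (0.84, 0.75) and the endothelial and platelet adhesion gene Selp (0.81, 0.65). Birc3 had Chsy1 (0.91, 0.9) and Csf2rb, a cytokine receptor subunit (0.91, 0.79), and Icam1 had Ifngr1, an interferon gamma receptor subunit (0.91, 0.79), and Csf2rb (0.89, 0.75). Vcam1 had Rasa3 (0.94, 0.86) and Iqgap1 (0.94, 0.9). Sod2 had Urah (0.94, 0.89), an enzyme of urate breakdown, and Ephx2 (0.89, 0.91), the soluble epoxide hydrolase. Rela had lower values, for Smc5 (0.75, 0.75) and Cpne3 (0.75, 0.62).

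Against the marker sums, Vcam1 ran with macrophage markers (r 0.84 over all livers, 0.81 within groups) and neutrophil markers (0.73, 0.77). Nfkbia ran with stellate cell and fibroblast markers (0.7, 0.79) and with neutrophil markers (0.72, 0.55), and Birc3 with neutrophil markers (0.75, 0.56). Sums of linear levels weigh bright markers most. In the stellate cell and fibroblast list Dcn ran from 9.78 to 11.85, while no other marker exceeded 9.93, so that this sum mainly reads Dcn. Relb (0.69, 0.31) and Nfkb2 (0.65, 0.21) ran with neutrophil markers over all livers, less so within groups. Sod2 ran against cholangiocyte markers (−0.71, −0.6). Icam1 had 0.67 and 0.52 with neutrophil markers, 0.66 and 0.49 with macrophage markers, and 0.14 and 0.13 with endothelial markers. Only some of the pairs of gene and marker list are given here. The part of these cells in the levels was not tested.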

How the data were processed

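RNA of 24 livers was hybridised to 1 array each. The deposited values are log2 levels of 35556 probe sets. The submitters' processing notes name RMA, which corrects background, normalises arrays by quantiles and summarises probes. The chip definition is not given in the sources used here. Of the probe sets 21218 carried 1 gene symbol, and the one with the highest mean over 24 arrays stood for each of 18820 genes. Array medians over all probe sets ran from 4.52 to 4.66, and replicates correlated at 0.966 to 0.987. The number of arrays limits the precision. Replicates were separate animals by their identifiers.

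Each comparison was fitted to its own 6 arrays (12 for the difference between the BDL and DEN comparisons, 24 for the F test) with limma 3.58.1 in R 4.3.3 (lmFit and eBayes, two-sided, Benjamini-Hochberg over all genes, threshold 0.05, no filter). The procedure was tested on simulated data. An exact test of 3 against 3 livers cannot go below 0.1, so that p-values come from limma alone.

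The genes, the pathway and marker lists and the tests were chosen with earlier results of these data known. Named were all listed genes, the targeted genes, up to 3 called genes of each pathway list by smallest p (or 2 as values where none was called), and for each listed gene the 2 with the highest correlation. Of 91 pathway genes, 84 were measured. Promoter windows came from RefSeq (GRCm38.p6). The correlation of deviations of same-numbered livers was 0.36, 0.3 and 0.04 after DEN, for replicates 1, 2 and 3. In no comparison did it exceed 0.1 for all pairs, so that replicate numbers were not taken as pairs.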

Additional observations from a re-analysis of the deposited data

How the results depend on the processing

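Alternatives were array centring on the median over the 18820 genes, quantile normalisation, and leaving out genes with a mean under 5. Others were all 24 arrays in 1 fit, array weights, a variance trend and the mean of all probe sets. The rest were a replicate block, an identifier prefix block, and leaving out each liver. Of 981 recomputed values of the 9 genes, 922 stayed on their side of the threshold, 57 of them uncalled values whose sign changed. A further 57 lost a call, 2 gained one, and no called value changed sign. Gained were Nfkbia at 52 weeks with centred arrays (−0.38) and Rela in the F test with array weights (adjusted p = 0.0258). The cause of these changes was not tested.

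At 52 weeks, centring gave 2 listed genes lower, 13 pathway genes higher and 21 lower, and 1570 of all genes higher and 8942 lower. The share of called genes that were higher was 63.3% as reported, 14.9% with centring and 46.6% with quantile normalisation, which gave 2426 lower against 1486 as reported, and 4 pathway genes lower. Pathway genes lower numbered 3 without dim genes, 2 with all 24 arrays (12 higher), 4 with weights and 3 with a variance trend. Leaving out a liver gave 1 to 2 pathway genes and 898 to 1586 of all genes lower.

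After BDL, with 150 genes higher and 105 lower as reported, all 24 arrays gave 54 and 62 (46.6% higher, against 58.8%), weights 169 lower, the replicate block 83 and 59, and the prefix block 75 and 43, with 2 pathway genes higher. Leaving out dim genes left 1 pathway gene higher. Leaving out a liver gave 2 to 4 pathway genes higher and 0 to 3 lower, and 32 to 310 of all genes higher and 25 to 249 lower; the extremes came without JNK replicate 1 or 2 and without control replicate 3. After DEN, leaving out a liver gave 0 to 2 genes higher. At 8 weeks all 24 arrays gave 19 genes higher and 38 lower, and weights 2 lower.

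For the difference between the BDL and DEN comparisons, dim genes left out gave 2 higher and 3 lower, weights 35 and 33 with 1 pathway gene higher, the replicate block 2 higher and the prefix block 0 higher. Leaving out a liver gave 0 to 1 pathway genes higher, and 0 to 19 of all genes higher and 2 to 8 lower, the 19 without DEN control replicate 1. In the F test, 4162 genes were called as reported, 7162 with centring and 8414 with weights, with 58 pathway genes against 31. Leaving out a liver left 4 to 8 of the listed genes called. Replicate numbers mark no shared animal, and the replicate block otherwise ended the calls of Mapk8 after BDL (adjusted p = 0.0516) and of Nfkbia and Sod2 in the F test.

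For dim genes such as Il6, an array's signal over background limits what can be measured, and these values carry no detection call.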
